A study of Mus musculus with 6 samples.

Results

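The genes described are 10 markers by which quiescent muscle stem cells (MuSCs) are recognised or sorted. They are Vcam1, Cdh15, Ncam1, Cd34, Calcr, Cxcr4, Megf10, Sdc3, Sdc4 and Chrdl2, and they were chosen by name as textbook markers, with earlier results of these data known. The table listed 31053 genes, of which 11633 passed a minimum mean of 10 normalized counts and were tested, and all 10 markers were among them. The question was whether the markers held or fell in MuSCs of cD2KO mice, in which Dio2 was targeted. Dio2 encodes the type 2 deiodinase (D2) that makes active thyroid hormone inside the cell.

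MuSCs lie between the muscle fibre and the basal lamina, and at rest they stay out of the cell cycle. Their surface carries adhesion molecules that hold them to the fibre and the lamina, receptors that keep them in place or at rest, and heparan sulfate proteoglycans that present growth factors. When the cells are activated, several of these markers, Calcr among them, are lost while others are kept through division, so the markers are not a single readout of quiescence.

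Bulk RNA-seq of MuSCs from resting muscle gave 1 library per mouse, 3 from WT and 3 from cD2KO mice aged 3 to 4 months. Every mouse carried the Pax7nGFP/+ reporter, by which nuclear GFP-positive cells were sorted, and floxed Dio2 (Dio2Fl/Fl), and every mouse was given tamoxifen. WT mice (c124, c129 and c130) were Pax7+/+ and had no Cre, whereas cD2KO mice (fl125, fl126 and fl128) carried Pax7-CreERT2/+, a Cre that is driven by Pax7 and active after tamoxifen, so that the presence of Cre and the targeting of Dio2 cannot be told apart. Nothing in the sources says that mice were pooled.

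Libraries held 2184073 to 3897787 counts, so that 3 counts corresponded to 0.773 to 1.37 CPM (counts scaled to a library of 1000000 after TMM scaling). Dio2 was counted 21, 5 and 10 times in WT and 15, 5 and 1 times in cD2KO, below the minimum for testing. The counts cover the whole gene, so they did not check the deletion, and Dio2 was highest, at 6.83 CPM, in the library labelled fl125. Pax7, the transcription factor that marks MuSCs, was counted at 411, 213 and 434 CPM in WT and 691, 455 and 316 CPM in cD2KO, and these ranges overlapped. Transcripts of other cells were abundant in every library. Summed CPM of the 10 immune markers ranged from 1834 to 4033 in WT and from 143 to 1169 in cD2KO, with Lyz2 and Csf1r leading, and no marker of that list was at 0 in any library. The 10 mural markers, with Acta2 and Myh11 leading, summed to 5812 to 9987 CPM in WT and 11649 to 17055 CPM in cD2KO. At an unadjusted p under 0.05 in edgeR, 4 were higher and none lower, beside 5.34% and 6.62% of all genes tested. Their median log2 fold change was 0.30, with 7 positive and 3 negative. In bulk RNA, fewer cells of a type and less RNA per cell cannot be told apart.

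Promoter sequences are shown for the markers that differed between groups or, for Sdc4, lay nearest to the threshold, so that their starts can be compared with the values that follow. They are the 250 bases before the start of the gene in RefSeq (GRCm38.p6, the same assembly as mm10), 5′ to 3′ on the gene's strand. A window was found for 6 of the 10 markers. The Sdc4 window lies inside the GENCODE span of the gene given below, in an intron of a longer noncoding transcript, because RefSeq places the start further downstream. Both strands were searched for the thyroid hormone receptor half-site AGGTCA, the E-box CANNTG that myogenic bHLH factors bind, the TGGGAA core of Rbpj sites, the TATA box TATAAA and the GC box GGGCGG, and capitals mark every match.
Sdc3, chr4:130792287-130792536, plus strand: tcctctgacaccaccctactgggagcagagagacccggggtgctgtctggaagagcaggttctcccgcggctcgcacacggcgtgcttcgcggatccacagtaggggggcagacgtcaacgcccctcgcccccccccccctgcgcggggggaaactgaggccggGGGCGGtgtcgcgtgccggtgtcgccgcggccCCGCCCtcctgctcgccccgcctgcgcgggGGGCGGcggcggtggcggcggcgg
Sdc4, chr2:164443189-164443438, minus strand: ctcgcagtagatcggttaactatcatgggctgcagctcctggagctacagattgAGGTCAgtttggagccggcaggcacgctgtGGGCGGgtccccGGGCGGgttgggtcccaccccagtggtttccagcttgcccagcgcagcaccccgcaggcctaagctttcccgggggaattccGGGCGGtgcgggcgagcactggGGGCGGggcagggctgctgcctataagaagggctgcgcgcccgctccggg
Cxcr4, chr1:128592300-128592549, minus strand: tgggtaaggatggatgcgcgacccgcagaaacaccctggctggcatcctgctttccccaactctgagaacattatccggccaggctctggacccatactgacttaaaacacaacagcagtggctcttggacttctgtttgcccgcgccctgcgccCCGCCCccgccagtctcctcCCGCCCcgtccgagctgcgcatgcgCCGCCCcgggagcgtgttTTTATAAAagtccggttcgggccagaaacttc

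The Sdc3 window held 3 GC boxes and none of the other motifs. In the Sdc4 window there were 4 GC boxes and 1 AGGTCA, 196 bases before the start. The Cxcr4 window held 3 GC boxes and a pair of overlapping TATA matches, 1 on each strand, 32 and 30 bases before the start. Of all 32851 RefSeq promoter windows of this length, 32.7% held a GC box, 14.0% an AGGTCA, 12.4% a TATA box, 66.2% an E-box and 21.6% the Rbpj core. For Cdh15 the window lies in an annotated 5′ untranslated region and is not shown whole. It held 3 E-boxes and 3 GC boxes and none of the other motifs. The GC boxes lie 110, 56 and 45 bases before the RefSeq start. Only the E-boxes, in capitals, are shown with the 10 bases on each side. They lie 236, 135 and 32 bases before the RefSeq start.
Cdh15 E-box, chr8:122848128-122848153, plus strand: gcactgatcaCATATGctgtcactca
Cdh15 E-box, chr8:122848229-122848254, plus strand: ggcccacctaCATGTGctgtcactca
Cdh15 E-box, chr8:122848332-122848357, plus strand: ccccaccacaCACGTGcagtcccttg

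The markers did not fall as a group. Cxcr4 and Sdc3 fell in cD2KO, Cdh15 rose, and the remaining 7 did not pass the test, at an unadjusted p under 0.05 in edgeR's quasi-likelihood test. Of all genes tested, 12.0% passed this threshold: 5.34% of all genes were higher and 6.62% lower in cD2KO. None of the 3 passed after adjustment over all genes, by which 1 gene (0.0086%) had an adjusted p under 0.05 and 90 genes (0.774%) an adjusted p under 0.1. In the same 3 markers the values of the groups did not overlap, as was the case for 18.1% of all genes tested. The median log2 fold change of the markers was -0.08, beside -0.02 over all genes tested. Of the 7 markers that did not pass, the 95% intervals of 6 ended above a log2 fold change of -1, and that of Sdc4 reached -1.04.

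**Figure D1:**
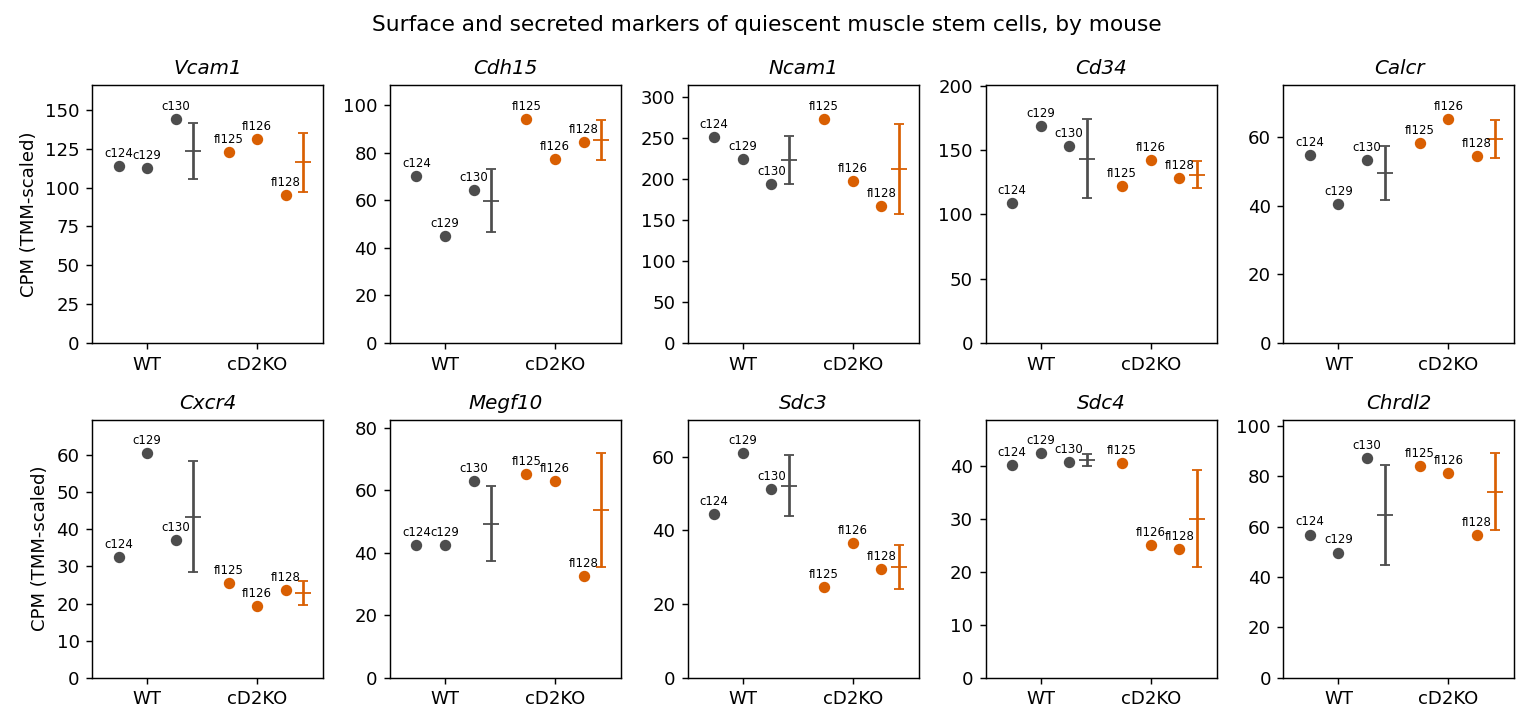
Level of each marker in every mouse, in CPM after TMM scaling on axes that start at 0, for WT (grey) and cD2KO (orange), with the group mean and SD beside the points (n = 3 mice each). In Cxcr4 and Sdc3 all cD2KO mice lie below all WT mice, in Cdh15 all lie above, and in the other 7 markers the groups overlap.

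Cxcr4, on chromosome 1 (chr1:128588199-128592293, minus strand), encodes the receptor for the chemokine Cxcl12 and guides the homing and retention of stem cells. It was measured at 32.4, 60.5 and 37.2 CPM in WT mice c124, c129 and c130, and at 25.5, 19.3 and 23.7 CPM in cD2KO mice fl125, fl126 and fl128. All cD2KO mice lay below the lowest WT mouse, and c129 stood well above the other WT mice. Mean levels were 43.4 ± 15.0 in WT against 22.8 ± 3.21 CPM (SD, n = 3 each). Cxcr4 thus had a fold of 0.527, or a log2 fold change of -0.92 (SE 0.30, 95% interval -1.56 to -0.29), and passed the unadjusted threshold with an adjusted p of 0.202 in edgeR. The call rested on c129, without which the log2 fold change was -0.59 and Cxcr4 was not called (adjusted p = 0.677 in edgeR, between 0.0895 and 0.677 over all alternatives). Cxcr4 is also made by leukocytes. Of the 10 immune markers, 4 were called lower and none higher in cD2KO, beside 6.62% and 5.34% of all genes tested. All 10 had a negative log2 fold change, from -2.32 to -1.51, with a median of -1.86. The immune sum was highest in c129, as was Cxcr4, but fl125, with the lowest immune sum, had the highest Cxcr4 of the cD2KO mice. The part of immune RNA in the difference was not tested.

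Sdc3 and Sdc4 encode syndecans, heparan sulfate proteoglycans that act as co-receptors for growth factors and are both used to sort MuSCs. Sdc3 (chr4:130792537-130826319, plus strand) stood at 44.3, 60.9 and 51.2 CPM in WT and at 24.6, 36.5 and 29.4 CPM in cD2KO. Every cD2KO mouse lay below every WT mouse. The mean of Sdc3 was 52.1 ± 8.34 in WT against 30.1 ± 5.97 CPM in cD2KO mice (SD, n = 3 each). This was a fold of 0.582 and a log2 fold change of -0.78 (SE 0.25, 95% interval -1.32 to -0.24), called with an adjusted p of 0.204 in edgeR. Of the 10 markers Sdc3 alone passed in all 6 fits that left out a mouse, with log2 fold changes of -0.94 to -0.62. As for Cxcr4, c129 was the highest of the 6 mice in Sdc3 and in the sums of immune and fibroadipogenic progenitor (FAP) markers, and fl125 was the lowest in all 3. The FAP sums ranged from 3990 to 6462 CPM in WT and from 2442 to 5229 CPM in cD2KO. Of the 9 FAP markers tested 3 were called lower and none higher, beside 6.62% and 5.34% of all genes tested. The part of immune and FAP RNA in the difference was not tested.

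Sdc4 (chr2:164424247-164443887, minus strand) was measured at 40.2, 42.3 and 40.7 CPM in WT and at 40.5, 25.1 and 24.3 CPM in cD2KO. The WT mice were nearly equal, fl126 and fl128 lay far below them, and fl125 lay among them. The log2 fold change was -0.46 (SE 0.27, 95% interval -1.04 to 0.12), with an adjusted p of 0.533 in edgeR. Without fl125 it was -0.69 and Sdc4 was called (adjusted p = 0.206 in edgeR, between 0.142 and 0.803 over all alternatives). The log2 ratio of Sdc4 to Sdc3 was -0.14, -0.52 and -0.33 in WT and 0.72, -0.54 and -0.27 in cD2KO. Only fl125 had more counts of Sdc4 than of Sdc3, and its Sdc3 was the lowest of all mice and its Sdc4 was not lowered. The difference in this ratio between groups was 0.30 with an exact permutation p of 0.7, where 0.1 is the smallest p that 3 mice against 3 allow, and it was -0.074 without fl125.

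Cdh15 (chr8:122847966-122867397, plus strand) encodes M-cadherin, which joins the MuSC to its fibre. Its levels were 70.0, 44.9 and 64.4 CPM in WT and 94.3, 77.4 and 84.3 CPM in cD2KO, with each cD2KO mouse above each WT mouse. The means were 59.8 ± 13.2 and 85.3 ± 8.49 CPM (SD, n = 3 each). Cdh15 had a log2 fold change of 0.51 (SE 0.22, 95% interval 0.04 to 0.98), called with an adjusted p of 0.381 in edgeR. The call was close to the threshold and was lost on leaving out c129 (log2 fold change 0.36), c130 (0.56), fl125 (0.47) or fl128 (0.52), and likewise with total-count scaling (0.45) or scaling to Pax7, Myf5 and Fgfr4 (0.068). Its adjusted p lay between 0.320 and 0.895 over all alternatives in edgeR, DESeq2 and limma. Markers of muscle fibres, which also share transcripts with committed myogenic cells, summed to 1899 to 4368 CPM in WT and 3427 to 6557 CPM in cD2KO, with none of 9 called but all 9 log2 fold changes positive (0.29 to 0.71, median 0.54), and their part in the difference was not tested.

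The other adhesion markers, Vcam1 and Ncam1, did not pass the test. Vcam1 (chr3:116109949-116129688, minus strand), the receptor for α4 integrins by which MuSCs are widely sorted, was measured at 114, 112 and 144 CPM in WT and 123, 131 and 95.1 CPM in cD2KO. The groups overlapped, with the highest mouse in WT (c130) and the lowest in cD2KO (fl128), and the log2 fold change was -0.09 (95% interval -0.53 to 0.35, adjusted p = 0.919 in edgeR). Ncam1 (chr9:49502136-49798925, minus strand), the neural cell adhesion molecule that MuSCs share with Schwann cells, stood at 251, 224 and 194 CPM in WT and 273, 197 and 167 CPM in cD2KO. Both the highest and the lowest mouse were cD2KO, and the log2 fold change was -0.07 (95% interval -0.54 to 0.40, adjusted p = 0.942 in edgeR). The 7 Schwann markers summed to 2450 to 3728 CPM in WT and to 3396 to 3541 CPM in cD2KO. Of them 2 were called lower and none higher, beside 6.62% and 5.34% of all genes tested. A share of the Ncam1 reads from Schwann cells in both groups cannot be told apart from that of MuSCs.

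Cd34 (chr1:194938819-194961279, plus strand), a sialomucin on quiescent MuSCs that FAPs and endothelial cells also carry, was measured at 109, 169 and 153 CPM in WT and 122, 142 and 128 CPM in cD2KO. The cD2KO mice lay within the WT range. The log2 fold change was -0.13 (95% interval -0.58 to 0.32, adjusted p = 0.872 in edgeR), and it was 0.025 without c129, the WT mouse with the highest Cd34. Of 9 endothelial markers tested, 6 were called lower and none higher in cD2KO, beside 6.62% and 5.34% of all genes tested. Their median log2 fold change was -1.28, and 1 was positive. Esam, the most abundant of the list, was not called. Sums of the list, to which Esam and Flt1 gave most, were 247 to 359 CPM in WT and 189 to 239 CPM in cD2KO. Tie1 was at 0 in fl125 and Cldn5 at 0 in fl126. The part of endothelial and FAP transcripts in the Cd34 level was not tested.

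Of the receptors, Calcr encodes the calcitonin receptor, which holds the MuSC at rest and is silenced on activation. Calcr (chr6:3685680-3764714, minus strand) was measured at 54.8, 40.5 and 53.3 CPM in WT and 58.3, 65.3 and 54.3 CPM in cD2KO. Calcr thus had means of 49.5 ± 7.88 and 59.3 ± 5.58 CPM, respectively (SD, n = 3 each). The lowest mouse was c129, and the lowest cD2KO mouse, fl128, lay just below WT mouse c124. The log2 fold change was 0.26 (SE 0.22, 95% interval -0.21 to 0.73), with an adjusted p of 0.715 in edgeR, and leaving out any mouse kept it between 0.15 and 0.34. Calcr thus did not pass the test in either direction, and its interval reached both lower and higher values in cD2KO. The sign depended on the scaling, as the log2 fold change was -0.19 on scaling to Pax7, Myf5 and Fgfr4.

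Megf10 (chr18:57133090-57297467, plus strand), an EGF-repeat receptor that is involved in MuSC proliferation and in engulfment, was measured at 42.5, 42.3 and 63.0 CPM in WT and 65.1, 62.9 and 32.5 CPM in cD2KO. The cD2KO mice spanned the WT range on both sides, with fl128 the lowest of all. Its log2 fold change was 0.12 (95% interval -0.50 to 0.73, adjusted p = 0.924 in edgeR). Chrdl2 (chr7:100006172-100034728, plus strand), which encodes a secreted chordin-like antagonist of BMPs and is a transcript marker rather than a membrane protein, stood at 56.9, 49.7 and 87.4 CPM in WT and 84.3, 81.2 and 56.5 CPM in cD2KO. Here too fl128 was the lowest cD2KO mouse, and c130 was the highest of all mice. The log2 fold change was 0.19 (95% interval -0.35 to 0.73, adjusted p = 0.838 in edgeR).

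**Figure D2:**
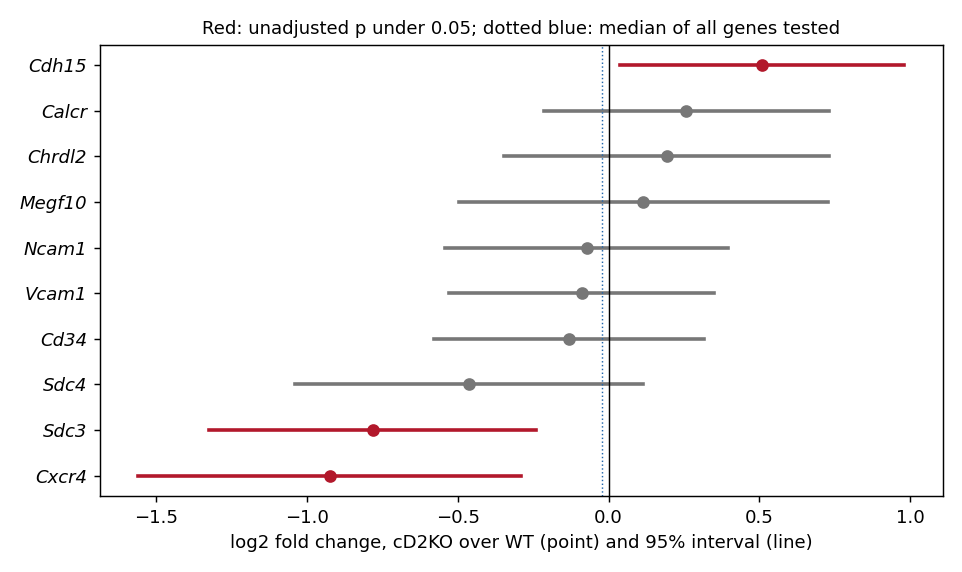
Log2 fold change of each marker between cD2KO and WT (points) with its 95% interval (lines) from edgeR, in order of size. Red marks an unadjusted p under 0.05, and the dotted line is the median of all genes tested, -0.02. The values run from -0.92 for Cxcr4 to 0.51 for Cdh15, and the intervals of the 7 markers in grey cross 0.

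The markers did not move together from mouse to mouse. In c129, Calcr, Cdh15 and Chrdl2 were at their lowest of the 6 mice, as was Pax7, while Cd34, Sdc3, Sdc4 and Cxcr4 were at their highest. In fl125, Cdh15, Megf10 and Ncam1 were at their highest, as was Pax7, and Sdc3 was at its lowest. In fl128, Vcam1, Sdc4, Megf10 and Ncam1 were at their lowest. The coefficient of variation between mice ranged over the markers from 2.72% for Sdc4 to 34.6% for Cxcr4 in WT, and from 8.12% for Cd34 to 34.0% for Megf10 in cD2KO. Its median was 18.8% in WT and 18.0% in cD2KO. Counts of a marker in a mouse lay between 54 and 975.

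**Figure D3:**
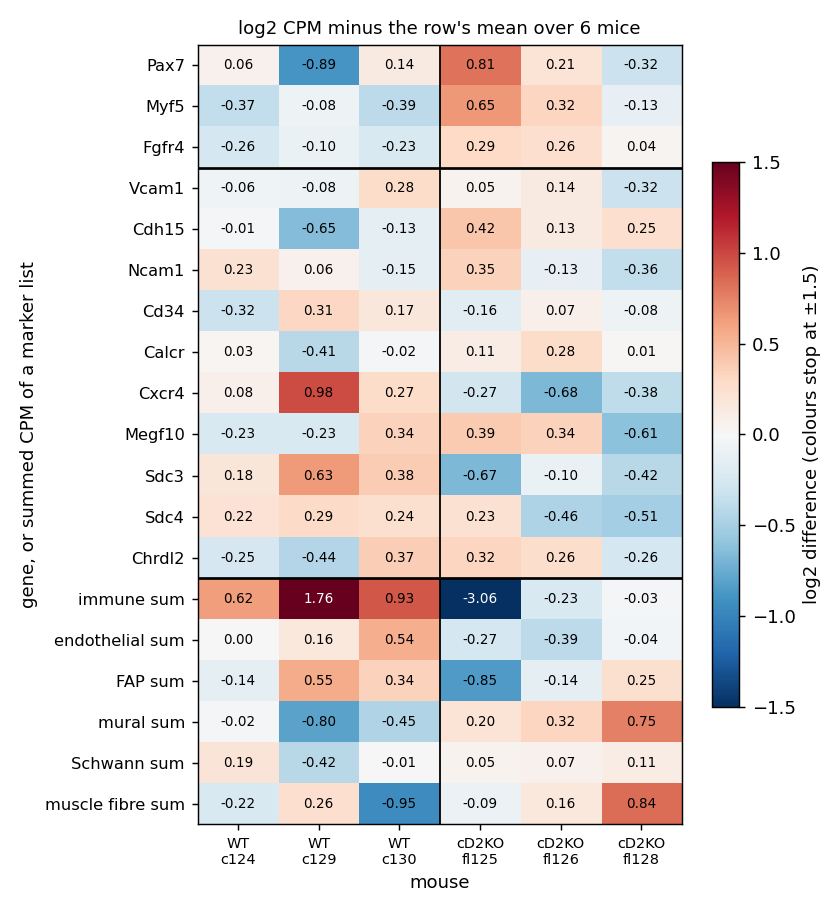
Log2 CPM of 3 MuSC identity genes, the 10 markers and the summed markers of other cell types in every mouse, as the difference from the mean over the 6 mice (red higher, blue lower). In c129 the difference was 0.98 for Cxcr4 and 1.76 for the immune sum but -0.89 for Pax7, and in fl125 it was -3.06 for the immune sum and 0.81 for Pax7.

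Leaving out each mouse in turn moved the sign of Vcam1, Ncam1, Cd34 and Megf10, none of which passed the test. The direction of Cxcr4, Sdc3, Sdc4, Cdh15, Calcr and Chrdl2 was the same in all 6 of these fits. Cxcr4 passed in 5 of the 6, Sdc3 in 6 and Cdh15 in 2, and Sdc4 passed in 1.

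**Figure D4:**
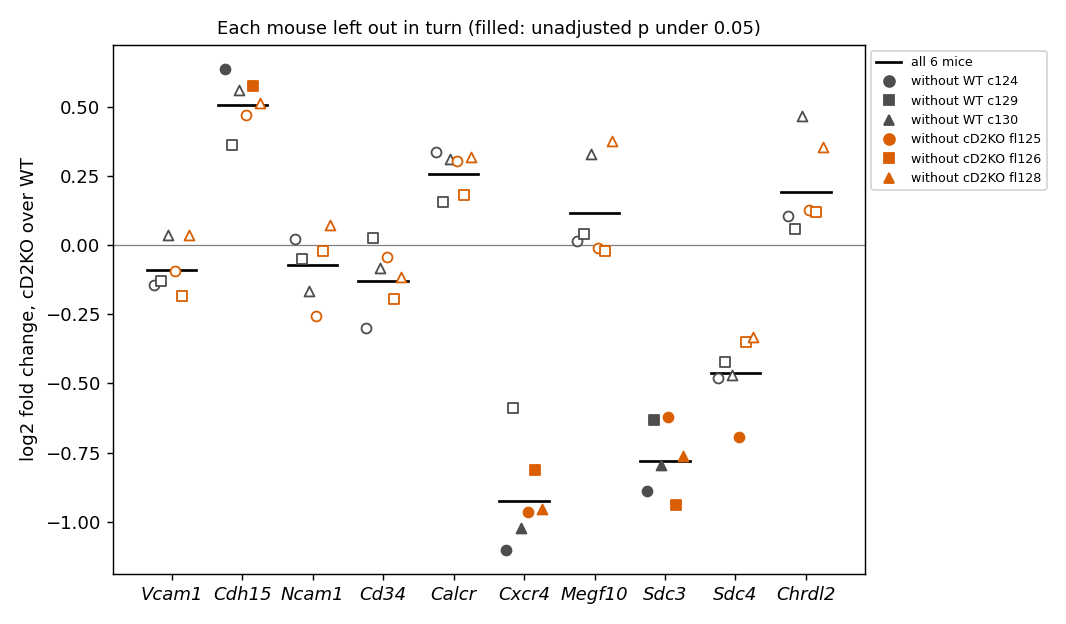
Log2 fold change of each marker with all 6 mice (bars) and with each mouse left out (symbols, filled at an unadjusted p under 0.05 in edgeR). Without c129 Cxcr4 stood at -0.59 and was not called, and without fl125 Sdc4 stood at -0.69 and was called.

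Because other cells contributed to the libraries, the markers were also set against transcripts of the MuSC itself. Pax7, Myf5 and the receptor Fgfr4 had a geometric mean of 99.8, 89.1 and 102 CPM in WT and 171, 137 and 104 CPM in cD2KO. All cD2KO mice lay above all WT mice, fl128 only slightly, with an exact permutation p of 0.1, the smallest that 3 mice against 3 allow. WT mice were Pax7+/+ and only cD2KO mice carried Pax7-CreERT2/+. The part of this allele in the Pax7 counts, and so in the scaling, was not tested. Scaling to these genes moved the median log2 fold change of all genes to -0.47, and 20.5% of all genes were then called lower and 0.206% higher in cD2KO. On that scale 9 of the 10 markers had a negative log2 fold change. Cxcr4 stood at -1.40, Sdc3 at -1.23 and Sdc4 at -0.96, and these 3 passed the unadjusted threshold in edgeR. Cdh15 stood at 0.068 and was no longer called, and Calcr (-0.19), Chrdl2 (-0.28) and Megf10 (-0.39) changed sign. Vcam1 (-0.56), Ncam1 (-0.58) and Cd34 (-0.58) moved further below 0 and did not pass. Relative to the shift of all genes, the values were -0.93 for Cxcr4, -0.76 for Sdc3, -0.49 for Sdc4, 0.54 for Cdh15 and 0.28 for Calcr. This scaling changes 1 factor per library and moves all genes nearly alike, so the values relative to the shift are no separate support.

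Between the markers, levels were compared per kilobase of annotated exon. In WT, Ncam1 had the highest level at 25.7 CPM per kb, followed by Cxcr4 at 24.0, Cd34 at 19.7, Cdh15 at 18.4, Chrdl2 at 17.7, Sdc4 at 16.1, Vcam1 at 13.9, Calcr at 12.7, Sdc3 at 8.70 and Megf10 at 6.38. Of the neighbours in this order only Calcr and Sdc3 did not overlap between mice. In cD2KO, Cdh15 was at 26.2 CPM per kb and Cxcr4 at 12.6. The sources do not say whether the reads cover whole transcripts or their 3′ ends, and in the latter case length would not enter the level.

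The markers act through ligands, partners and modifying enzymes, of which 38 were listed and 35 tested. In this list 1 gene was higher and 4 were lower in cD2KO, with a median log2 fold change of -0.04. Thus 5 of 35 were called, beside 12.0% of all genes tested. The 1 higher gene, Fzd7, is also in the list of other surface proteins and is given there. A share this near that of all genes is no result about the partners as a group, and the genes called are given for their own values. Sdcbp, which encodes syntenin, the adaptor that binds the tails of syndecans, was at 107, 154 and 108 CPM in WT and 62.8, 76.7 and 84.3 CPM in cD2KO. All cD2KO mice lay below WT, as they did for Sdc3 itself, and the log2 fold change was -0.72 (SE 0.22, adjusted p = 0.176 in edgeR). Col5a2, a chain of collagen V, through which Calcr is held active in quiescent cells, was at 90.1, 101 and 96.1 CPM in WT and 60.6, 69.1 and 58.7 CPM in cD2KO. It fell by 0.60 on the log2 scale (SE 0.19, adjusted p = 0.202 in edgeR), and the groups did not overlap. Col5a2 is also made by FAPs, whose summed markers are given above, and their part was not tested.

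Abca1, a lipid transporter linked to engulfment receptors, was at 31.4, 44.6 and 25.1 CPM in WT and 20.9, 18.6 and 15.2 CPM in cD2KO, with no overlap. It fell by 0.89 on the log2 scale (adjusted p = 0.248 in edgeR), but without c129 the log2 fold change was -0.62 and the call was lost (adjusted p = 0.682 in edgeR). Sdcbp and Abca1 were both highest in c129 and lower in every cD2KO mouse, as was the immune sum given above, and the part of immune RNA in them was not tested. St8sia4, which adds polysialic acid to Ncam1, was near the counting limit at 7.21, 9.65 and 2.44 CPM in WT and 0, 0.344 and 3.47 CPM in cD2KO, and its groups overlapped. Its log2 fold change of -2.20 (adjusted p = 0.379 in edgeR) was not called without fl125 (-1.67) or fl126 (-1.75) and stood at -4.78 without fl128. Without c124 or c129 it fell below the minimum and was not tested. The ligand and second receptor of the Cxcr4 axis, named after their values had been seen, did not pass. Cxcl12 averaged 224 ± 63.4 CPM for WT mice against 223 ± 24.8 CPM for cD2KO mice (SD, n = 3 each). Ackr3, which scavenges Cxcl12, had a log2 fold change of 0.39 (95% interval -0.09 to 0.86).

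Other surface proteins of MuSCs, 25 listed and 23 tested, also moved in both directions, with 4 higher and 2 lower in cD2KO, beside 5.34% and 6.62% of all genes tested, and a median log2 fold change of 0.03. The 4 higher were Cd82, Itga7, Notch3 and Fzd7. Cd82, a tetraspanin that marks human and mouse MuSCs, was at 145, 131 and 156 CPM in WT and 245, 261 and 215 CPM in cD2KO. The groups were far apart, and Cd82 rose by a log2 fold change of 0.74 (SE 0.19, adjusted p = 0.123 in edgeR). Itga7, the integrin chain that binds laminin and is used beside Vcam1 in sorting, was at 238, 153 and 228 CPM in WT and 313, 331 and 370 CPM in cD2KO. It rose by 0.71 on the log2 scale (SE 0.21, adjusted p = 0.171 in edgeR). Notch3 (log2 fold change 0.75) and Itga7 are also expressed by mural cells, whose sums were higher in every cD2KO mouse, and the part of these cells was not tested. Notch3 is itself 1 of the 10 markers in the mural sum. Of these 10, 7 had a positive and 3 a negative log2 fold change. Fzd7, a Wnt receptor that pairs with Sdc4, had a log2 fold change of 0.76 (adjusted p = 0.395 in edgeR) with overlapping groups. Its call was lost without c124 (0.65), c130 (0.54), fl126 (0.85) or fl128 (0.57) and with total-count scaling (0.69) or a minimum mean of 50 (0.73), and without c129 it stood at 1.18.

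Notch2 and Lifr were the 2 lower genes of this list. Lifr, the receptor chain for leukemia inhibitory factor, was at 57.9, 60.5 and 48.7 CPM in WT and 30.1, 38.5 and 39.2 CPM in cD2KO, without overlap. It fell by 0.63 on the log2 scale (adjusted p = 0.292 in edgeR), and the call was lost without c129 (-0.54) or fl125 (-0.48). Notch2 had a log2 fold change of -1.08 (adjusted p = 0.0997 in edgeR) and was called in all 6 fits that left out a mouse. On scaling to Pax7, Myf5 and Fgfr4, Cd82, Itga7, Notch3 and Fzd7 kept a positive log2 fold change, between 0.28 and 0.38, and none was called.

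**Figure D5:**
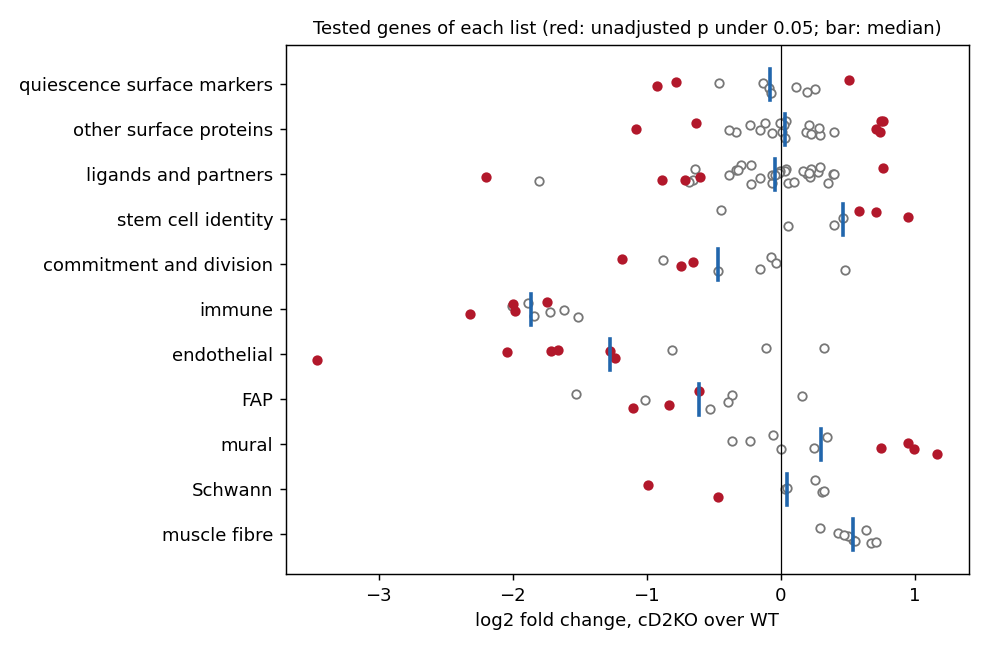
Log2 fold change between cD2KO and WT of every tested gene in the 10 markers, their partners, other surface proteins and the marker lists of identity, division and other cell types (points, red at an unadjusted p under 0.05 in edgeR, bars at the median). The medians were -0.08 for the 10 markers, 0.03 for other surface proteins, -0.04 for partners and -1.86 for immune markers.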

How the data were processed

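The authors sorted nuclear GFP-positive MuSCs, extracted RNA, sequenced 1 library per mouse and deposited a table of raw, whole-number read counts for each gene and each of 6 mice. The submitters' processing notes name bcl2fastq, STAR 2.6.0a, HTSeq 0.9.1 and mm10. The annotation, strand setting and treatment of PCR duplicates are not given in the sources used here. Without strand, reads of a gene and of an overlapping antisense gene cannot be told apart. Exons of Cd34, Vcam1, Sdc3 and Ncam1 overlap opposite-strand genes, which had at most 6 counts in a mouse. Coordinates and exon lengths came from GENCODE M21, in which 31011 of 31053 identifiers were found.

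A gene was kept if its counts, divided by DESeq2 size factors, averaged above 10 over the mice (11633 genes). The main test was robust quasi-likelihood fitting in edgeR 4.0.16 (R 4.3.3) after TMM scaling, on all 6 mice without covariates. Adjusted p are Benjamini-Hochberg values over the whole set tested. A gene was called at an unadjusted p under 0.05, the line used in the study, since the groups are small. Exact permutation tests of single values were two-sided (scipy 1.17.1). SDs are between mice. The steps were first tested on simulated data.

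The genes named were all 10 markers, Pax7, Myf5, Myod1, Myog and Mki67, Dio2, the called genes of the lists of partners and of other surface proteins, up to 6 in each direction by p, and the 2 most abundant markers of other cells. Cxcl12, Ackr3, Fgfr4, Tie1, Cldn5, Top2a and Birc5 were picked with their values in view. The markers and all lists were chosen with earlier results of these data known. A marker of another cell type is not reported here and was left out of its list. Alternatives were DESeq2 1.42.0, limma 3.58.1 (voom), 4 other scalings, 3 other minimums, non-robust estimation, calls at an adjusted p and leaving out each mouse.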

Additional observations from a re-analysis of the deposited data

How the results depend on the processing

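No paired analysis was made because the labels do not say that any WT mouse is paired with a cD2KO mouse. Under the other tests, scalings and minimums Cxcr4 and Sdc3 were called lower in every setting but those at an adjusted p under 0.05 or 0.1, which left 0 markers higher and 0 lower. Cdh15 was no longer called with total-count scaling (0.45) or scaling to Pax7, Myf5 and Fgfr4 (0.068), which gave 0 markers higher. The latter scaling also reversed Calcr (-0.19), Chrdl2 (-0.28) and Megf10 (-0.39), called Sdc4 (-0.96) and moved the markers' median to -0.57. Ackr3 stood at -0.0060, and Pax7, which is itself scaled to, at -0.047. This scaling moved the median of all genes to -0.47, and these sign changes are part of that shift. Over all genes, 621 were called higher and 770 lower, against 445 and 945 with total-count scaling, 24 and 2390 with scaling to the 3 MuSC genes, and 499 and 399 without c129. The causes were not tested.

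Leaving out each mouse gave ranges of log2 fold changes of 0.15 to 0.34 for Calcr, -0.30 to 0.025 for Cd34, -0.18 to 0.039 for Vcam1, -0.94 to -0.62 for Sdc3, -0.69 to -0.33 for Sdc4, 0.057 to 0.47 for Chrdl2, -1.10 to -0.59 for Cxcr4, -0.021 to 0.38 for Megf10, 0.36 to 0.64 for Cdh15 and -0.26 to 0.075 for Ncam1. The median of the markers ran from -0.10 to 0.057, the number called from 0 to 1 higher and from 1 to 3 lower, and the difference in the log2 ratio of Sdc4 to Sdc3 from -0.074 to 0.56. With 3 mice a group the intervals are wide, and p-values measure only the spread between these mice.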

Other observations

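Genes of commitment and division were examined beside the surface markers. Of 9 tested, 3 were lower and none was higher in cD2KO, with a median log2 fold change of -0.47, beside 6.62% of all genes tested lower and 5.34% higher. Mki67, which marks cycling cells, averaged 18.2 ± 1.98 CPM for WT mice against 10.9 ± 0.886 CPM for cD2KO mice (SD, n = 3 each). Its log2 fold change was -0.74 (adjusted p = 0.400 in edgeR), and it was called in none of the 6 fits that left out a mouse (-0.82 to -0.66). Top2a (-0.65) and Birc5 (-1.19) were the others. The myogenic factors Myod1 (log2 fold change -0.07, 95% interval -0.71 to 0.57) and Myog (-0.15, 95% interval -1.28 to 0.97) did not pass. Immune cells also divide, and their part in these values was not tested.

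Of 7 identity genes, Des, Itga7 and Myf5 were higher in cD2KO and none was lower, beside 5.34% of all genes tested higher and 6.62% lower. Des and Itga7 are also made by mural cells and Des by muscle fibres. The mural sums were higher in every cD2KO mouse, all 9 fibre markers had a positive log2 fold change, and fl128 was highest in Des (842 CPM), the mural sum and the fibre sum. Their part in the difference was not tested. Myf5 was at 29.4, 36.0 and 28.9 CPM in WT and 59.7, 47.5 and 34.7 CPM in cD2KO, with overlap between groups, and had a log2 fold change of 0.59 (adjusted p = 0.399 in edgeR). It was called in 2 of the 6 fits that left out a mouse and in 5 of the 10 other settings, and not with DESeq2, limma voom, total-count scaling, scaling to the 3 MuSC genes or a minimum mean of 50. The library labelled fl125 had the highest levels of Pax7 and Myf5 of all mice.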
